A study of Homo sapiens with 18 samples.

Results

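The genes described here are those by which a liver cell takes up, stores, exports and senses iron: TF, TFRC, TFR2, SLC11A2, FTH1, FTL, SLC40A1, CP, HAMP and IREB2. They were taken by name and not by a cutoff on their values, although earlier results of these data were known. All 10 were among the 15852 genes tested. They were measured by 15 array probes, and every one of these probes was well above background on all 18 arrays. The series compared Huh1 and Huh7, which are established human hepatocellular carcinoma (HCC) cell lines. Each was profiled as control cells, after disulfiram (DSF) at 0.1 μM or after 5-fluorouracil (5-FU) at 1 μM for 48 h. All cells were sorted for the surface protein EpCAM before RNA was taken. DSF is a drug against alcohol dependence that inhibits aldehyde dehydrogenase and binds copper. The study's methods describe copper chloride being given together with DSF in culture, and what the control cells received is not given in the sources used here. 5-FU is a pyrimidine analog that inhibits thymidylate synthase. Each of the 6 groups had 3 arrays, numbered 1 to 3. The study's methods describe the triplicates as coming from independent experiments, and the labels do not say which arrays shared an experiment.

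Iron reaches the hepatocyte bound to transferrin, is taken in by transferrin receptors, leaves the endosome through a divalent metal transporter and is kept in ferritin, a shell of heavy and light chains. Ferroportin is the exporter of iron, and ceruloplasmin, a copper-carrying ferroxidase of the plasma, helps exported iron to load onto transferrin. Hepcidin, the peptide hormone made by hepatocytes, binds ferroportin and brings about its degradation, and its gene HAMP is switched on by bone morphogenetic protein (BMP) and interleukin-6 signaling. Iron regulatory proteins, one of which IREB2 encodes, bind stem-loops in messenger RNAs, where they block ferritin translation and stabilize the transferrin receptor message. Ferritin protein can therefore change without its messenger RNA, and only messenger RNA was measured here.

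The promoter of HAMP and a stretch of the FTL message are shown because HAMP carried the greatest difference between the lines among these genes and FTL the greatest change with 5-FU. The sequences are those of RefSeq on GRCh38.p14, which held a start window for 7 of the 10 genes. The 150 bases before the HAMP start lie on the plus strand at chr19:35282378-35282527, and the capitals mark GGCGCC, the core of a BMP response element, and TTCNNNGAA, the form of a STAT site.
HAMP: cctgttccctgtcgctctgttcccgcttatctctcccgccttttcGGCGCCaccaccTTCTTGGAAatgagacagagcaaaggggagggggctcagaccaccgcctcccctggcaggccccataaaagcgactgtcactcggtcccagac
Read on both strands, GGCGCC was present in 19.2% and TTCNNNGAA in 7.66% of 35116 windows of 300 bases around RefSeq starts. The next 26 bases lie near the start of FTL on the plus strand at chr19:48965333-48965358, and the capitals mark the loop of its iron-responsive element.
FTL: gtctcttgcttcaaCAGTGTttggac
A loop of this form with its bulged C and stem was present in 37 windows (0.105%), read on the transcribed strand. A match describes letters in the window and is not evidence of binding in these cells.

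Values are normalized log2 signals, that is, log2 of the processed spot signal minus the 75th percentile of the same array, so a value of 0 lies at that percentile and a change is read against the other probes of an array. A change was called at a limma adjusted p under 0.05 over all 29894 probes tested. The 7 hepatocyte markers, ALB, AFP, TTR, APOA1, APOB, HNF4A and SERPINA1, were above background on all arrays. So were the 4 epithelial markers, EPCAM, KRT8, KRT18 and CDH1. Their presence on the arrays of both lines does not tell Huh1 from Huh7. Of the lists for other cells, 3 of 5 macrophage markers (CD68, CD14 and PTPRC), EPOR of the erythroid list and 1 of 4 endothelial and stellate markers (PECAM1) were above background on all arrays, and HBB was so on none. Arrays were spread over 3 slides. The Huh1 control and Huh1 5-FU arrays and 2 of the Huh1 DSF arrays shared slide 1, and the third Huh1 DSF array lay on slide 2 with the Huh7 controls, the Huh7 5-FU arrays and Huh7 DSF replicate 1. Huh7 DSF replicates 2 and 3 were alone on slide 3, so DSF changes in Huh7 are given for slide 2 as well. By the file headers, slide 3 was also scanned on another day than all other arrays. With slide as a block, each DSF change in Huh7 rests on 1 DSF array, replicate 1. It equals the slide 2 value and is not a separate check, and a call kept or lost there has that limit. The 75th percentile, measured against the spike-in probes, stood 0.83 (Huh1) and 0.98 (Huh7) above that of the controls on the 5-FU arrays, in log2 units, against 0.13 and -0.18 on the DSF arrays. Scaled to the spike-ins instead, the median of all genes after 5-FU moved to 0.80 in Huh1 and 0.98 in Huh7, and of the 10 values of these genes that lay below 0 after 5-FU and were called, all but that of FTL in Huh7 turned above 0.

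In the control cells, the lines differed most in HAMP. Its normalized signal was 6.90, 6.77 and 6.68 in the Huh1 controls and -2.21, -2.51 and -2.31 in the Huh7 controls, so that the groups were far apart and Huh7 lay 9.12 ± 0.20 (SE) lower on the log2 scale, a 558-fold difference in array signal (adjusted p = 1.98e-14). SLC40A1, which encodes ferroportin, was also lower in Huh7, at 2.22, 2.24 and 2.27 against 4.52, 4.86 and 4.85 in Huh1, a difference of -2.50 ± 0.10 (adjusted p = 7.33e-12). CP, the gene of ceruloplasmin, was lower in Huh7 by 1.49 on the log2 scale and FTL, the ferritin light chain, by 1.34, with adjusted p of 2.07e-09 and 5.69e-10. TFRC, the main transferrin receptor, was lower by 0.64, whereas IREB2 was higher in Huh7 by 0.42 and TF by 0.18. TFR2, the second transferrin receptor, SLC11A2, which encodes the divalent metal transporter DMT1, and FTH1, the ferritin heavy chain, were not called, with differences of 0.17, -0.16 and -0.0073. In all, 7 of the 10 genes were called between the control groups, beside 77.9% of all genes tested. The control groups lay on different slides, and line and slide are linked only through Huh1 DSF replicate 3; with slide as a block, the difference of HAMP was -9.22 and that of SLC40A1 -2.54, whereas TF was no longer called. The call of TF was also lost when any of the 6 control arrays was left out.

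**Figure D1:**
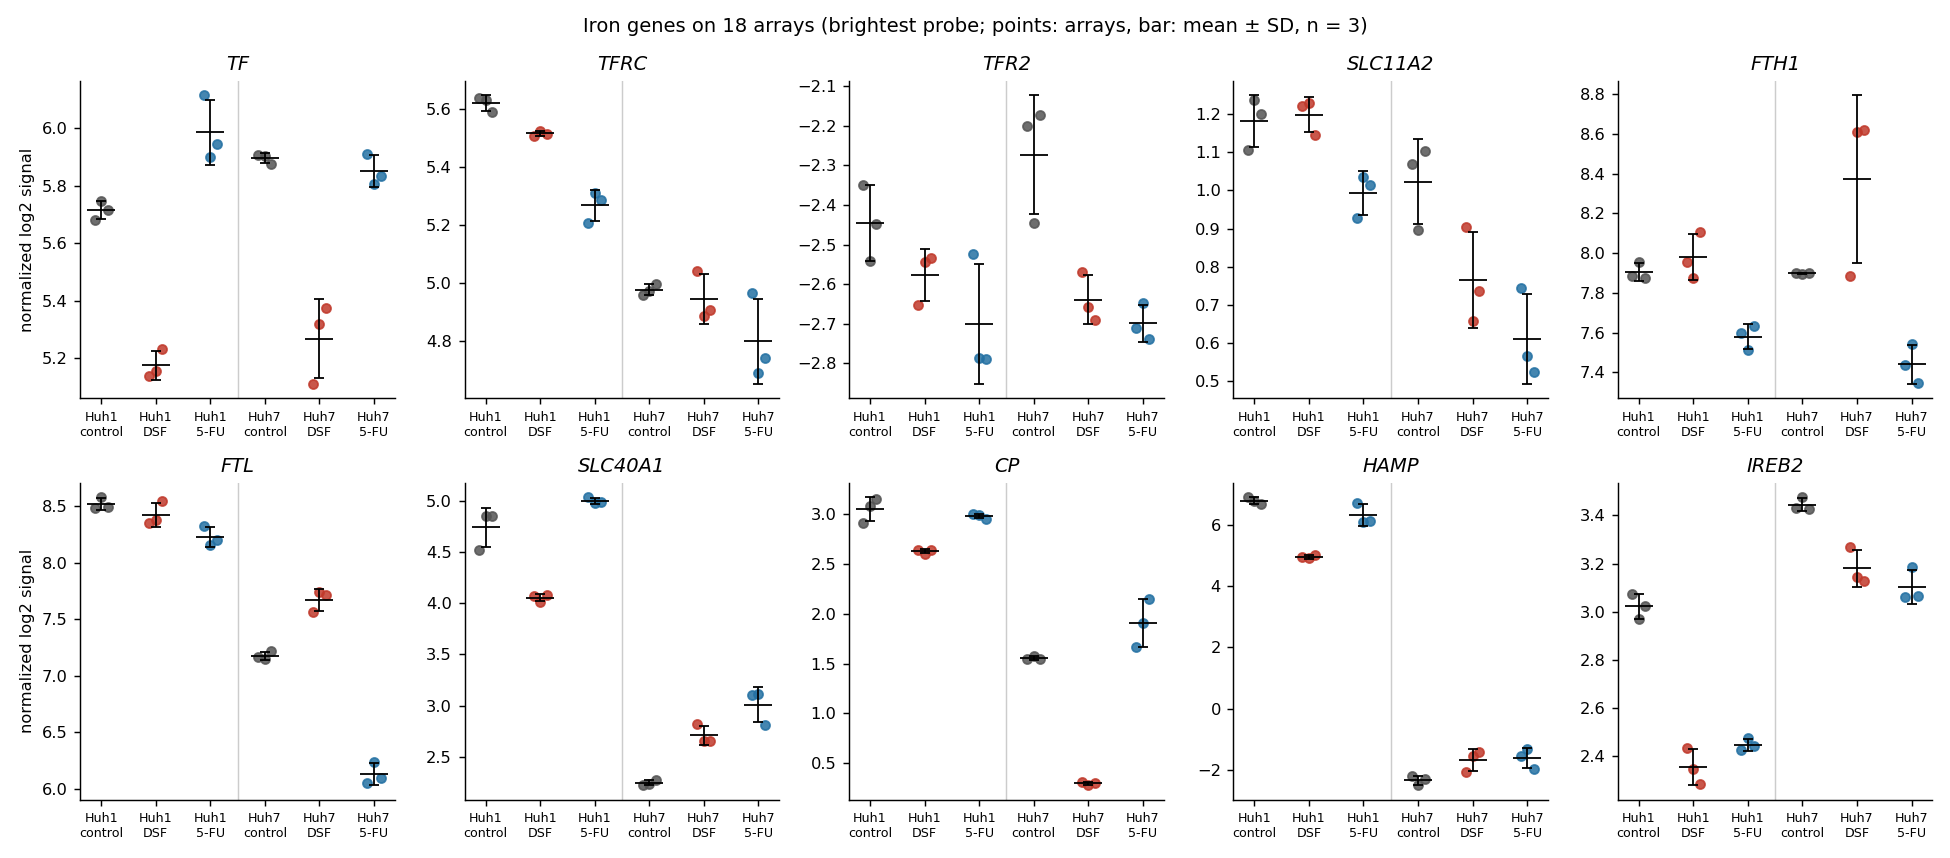
Normalized log2 signal of the 10 iron genes (vertical axes, one range per gene) in the 6 groups, with a point for each array and the mean ± SD of 3 arrays. HAMP lies between 4.90 and 6.90 in Huh1 and between -2.51 and -1.32 in Huh7, and SLC40A1 and CP are also lower in Huh7 in each treatment.

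HAMP moved in opposite directions in the 2 lines after DSF. In Huh1 it fell from a mean of 6.78 ± 0.11 (SD, n = 3) to 4.94, 4.90 and 5.01 on the DSF arrays, and no DSF array came near a control array. The decrease was 1.83 ± 0.20 (SE) on the log2 scale, or 3.56-fold (adjusted p = 5.59e-06), and the change was -1.86 with the DSF arrays on the slide of the controls alone. In Huh7, where the signal was low, the DSF arrays read -2.08, -1.53 and -1.41 and all lay above the controls, a change of 0.67 ± 0.20 (adjusted p = 0.0145). The 2 highest of these were the arrays on slide 3; the array on the slide of its controls was 0.26 above their mean, and with slide as a block the change was 0.26 (adjusted p = 0.506). With the spike-in scaling it was 0.49 and not called (adjusted p = 0.0693). It was also lost without Huh7 control replicate 2 (adjusted p = 0.0575), DSF replicate 2 (0.056) or DSF replicate 3 (0.0713). The difference between the lines in the DSF change of HAMP was 2.50 ± 0.28 (adjusted p = 1.41e-05) and stayed at 2.13 with slide as a block.

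5-FU left HAMP in Huh1 at 6.73, 6.09 and 6.12, with the first array inside the control range, and the change of -0.47 ± 0.20 was not called (adjusted p = 0.0667). Without Huh1 5-FU replicate 1 it was -0.68 (adjusted p = 0.0107), it was called with slide as a block (adjusted p = 0.048), and it turned to 0.35 with the spike-in scaling (adjusted p = 0.113). In Huh7 HAMP rose, to -1.54, -1.32 and -1.97 on the 5-FU arrays, a change of 0.73 ± 0.20 (adjusted p = 0.00638), or 1.66-fold. All 3 arrays lay above the controls, and the gene was higher also with the spike-in scaling (1.71). The difference between the lines was 1.20 ± 0.28 (adjusted p = 0.00431).

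SLC40A1, the target of hepcidin at the protein level, followed the same split after DSF. The Huh1 DSF arrays read 4.07, 4.01 and 4.08, all below the controls, and the gene fell by 0.69 (SE 0.10, adjusted p = 4.40e-05). The Huh7 DSF arrays read 2.81, 2.66 and 2.65, all above the controls, and the gene rose by 0.46 ± 0.10 (adjusted p = 0.00121). This increase was present on slide 2, at 0.57 for its 1 DSF array, but with the spike-in scaling it was 0.29 and not called (adjusted p = 0.203). The difference between the lines was 1.15 ± 0.13 (adjusted p = 1.78e-05). After 5-FU SLC40A1 rose in both lines. It reached 5.04, 4.98 and 4.99 in Huh1, a change of 0.26 ± 0.10 (adjusted p = 0.0347) that was 0.15 without Huh1 control replicate 1, the lowest of the controls (adjusted p = 0.169). That call was also lost when any 1 of the Huh1 5-FU arrays was left out. In Huh7 it reached 3.10, 3.11 and 2.81, a change of 0.76 ± 0.10 (adjusted p = 8.61e-06), larger than that in Huh1 by 0.50 ± 0.13 (adjusted p = 0.00931; 0.32 and not called with quantile normalization, adjusted p = 0.0607).

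CP, the second gene on the export side, fell after DSF in both lines and more in Huh7. Its brighter probe read 2.91, 3.08 and 3.15 in the Huh1 controls and 2.64, 2.60 and 2.64 with DSF, a decrease of 0.42 ± 0.09 on the log2 scale (-0.42, adjusted p = 0.0021) that was not called with the spike-in scaling (-0.29, adjusted p = 0.111). In Huh7 the controls read 1.55, 1.58 and 1.55 and the DSF arrays 0.31, 0.28 and 0.31, a change of -1.26 ± 0.09, or 2.39-fold lower (adjusted p = 1.60e-07). The array on slide 2 alone gave -1.25, and the second CP probe gave -0.45 in Huh1 and -1.30 in Huh7. The DSF change differed between the lines by -0.84 ± 0.13 (adjusted p = 0.000217). With 5-FU the Huh1 arrays read 3.00, 2.99 and 2.95, within the control range (change -0.07, adjusted p = 0.587). The Huh7 arrays read 1.66, 1.90 and 2.15, all above the controls, and the change was 0.35 ± 0.09 (adjusted p = 0.00563); the second probe gave 0.27, which was not called (adjusted p = 0.0763).

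**Figure D2:**
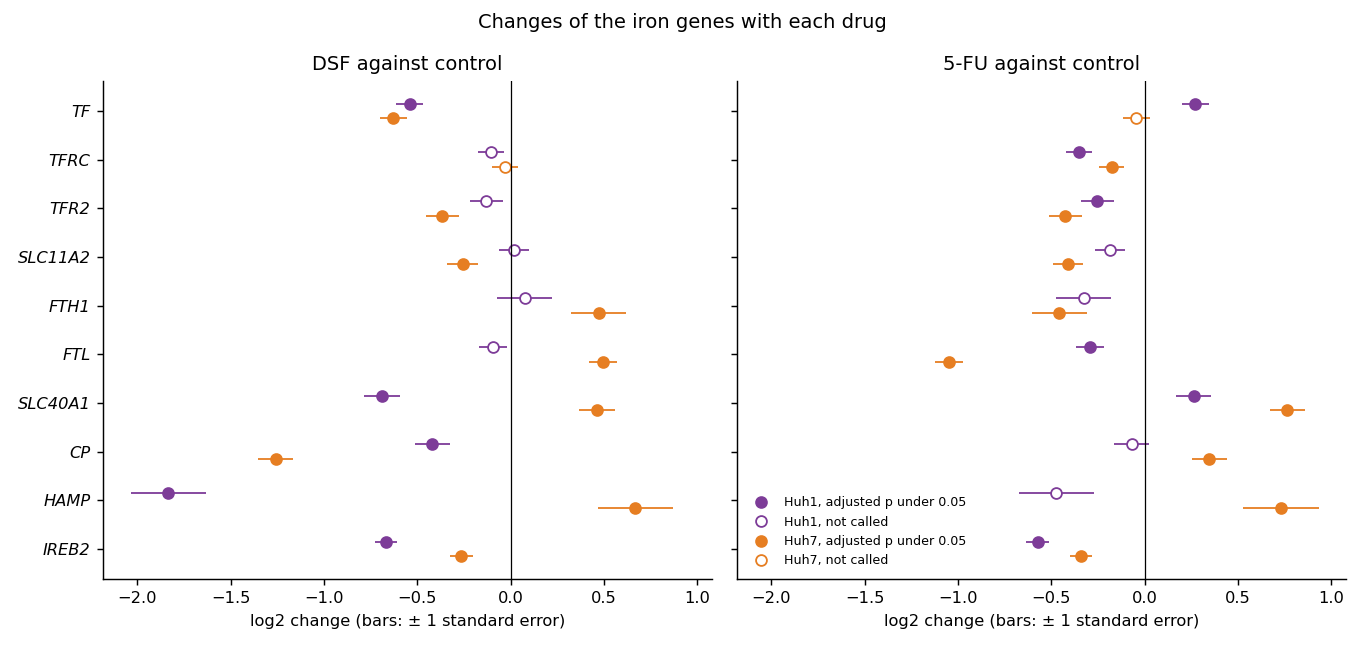
Log2 change from control (horizontal axis) of each iron gene after DSF (left) and 5-FU (right), as estimate ± 1 standard error, in Huh1 (purple) and Huh7 (orange); filled points were called at an adjusted p under 0.05. After DSF, HAMP and SLC40A1 lie on opposite sides of 0 in the lines (-1.83 and 0.67, -0.69 and 0.46), and after 5-FU FTL is the lowest value, at -1.05 in Huh7; with the spike-in scaling that value is -0.07 and those of TFRC, TFR2, SLC11A2, FTH1 and IREB2 are above 0 in both lines.

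FTL was higher after DSF and lower after 5-FU in Huh7. There the controls read 7.17, 7.15 and 7.22, the DSF arrays 7.56, 7.74 and 7.71, and the 5-FU arrays 6.05, 6.24 and 6.10, so that none of these 3 groups overlapped. FTL thus rose with DSF by 0.49 ± 0.08 (adjusted p = 0.000111), and the change was 0.38 with slide as a block (adjusted p = 0.00737), but 0.32 and not called with the spike-in scaling (adjusted p = 0.0711). It fell with 5-FU by 1.05 ± 0.08 on the log2 scale, 2.07-fold (-1.05, adjusted p = 3.70e-08), which became -0.07 with the spike-in scaling (adjusted p = 0.644). In Huh1 the controls read 8.49, 8.58 and 8.49 and the DSF arrays 8.35, 8.38 and 8.55, which overlapped (change -0.09, adjusted p = 0.344). With the median scaling this change was -0.27 and called (adjusted p = 0.0129). The Huh1 5-FU arrays, at 8.33, 8.16 and 8.20, all lay below the controls, a change of -0.29 ± 0.08 (adjusted p = 0.0053) that turned to 0.15 with quantile normalization and 0.54 with the spike-in scaling. The lines differed in the DSF change of FTL by 0.59 ± 0.11 (adjusted p = 0.000623), which was 0.28 and not called with the spike-in scaling (adjusted p = 0.278), and in its 5-FU change by -0.76 ± 0.11 (adjusted p = 8.70e-05). The second FTL probe gave 0.40 for DSF and -1.03 for 5-FU in Huh7.

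The call of FTH1 in Huh7 after DSF rested on the arrays of slide 3, and it was lost without either of them (adjusted p = 0.088 and 0.0898). The brightest of its 3 probes read 7.90, 7.89 and 7.90 in the Huh7 controls and 7.88, 8.61 and 8.62 on the DSF arrays. The first of these lay on the slide of the controls and was at their level, 0.015 below their mean (-0.015), and the other 2 were 0.72 above it. The change over all 3 arrays was 0.47 ± 0.15 (adjusted p = 0.017), with slide as a block it was -0.015 (adjusted p = 0.931), and with the spike-in scaling 0.30 (adjusted p = 0.131). The third probe showed the same pattern, with -0.011 on slide 2 and 0.72 on slide 3, and the second gave 0.18 and 0.54. Slide, scan day and DSF replicate cannot be told apart on slide 3, which holds no other array. In Huh1 DSF gave 7.96, 7.88 and 8.11 against 7.88, 7.96 and 7.88 in the controls, and the change of 0.07 was not called (adjusted p = 0.714); the highest of these arrays was the one on slide 2. After 5-FU the Huh7 arrays read 7.44, 7.54 and 7.34, below all controls, a change of -0.46 ± 0.15 (adjusted p = 0.0158, and 0.0544 without 5-FU replicate 3), and the Huh1 arrays 7.60, 7.51 and 7.63, a change of -0.33 that was not called (adjusted p = 0.083) but was with slide as a block (adjusted p = 0.000673). Both changed sign with quantile normalization (0.14 and 0.07) and with the spike-in scaling (0.53 and 0.50). FTH1 has many near-identical copies in the genome, and how far these probes also read them was not tested.

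**Figure D3:**
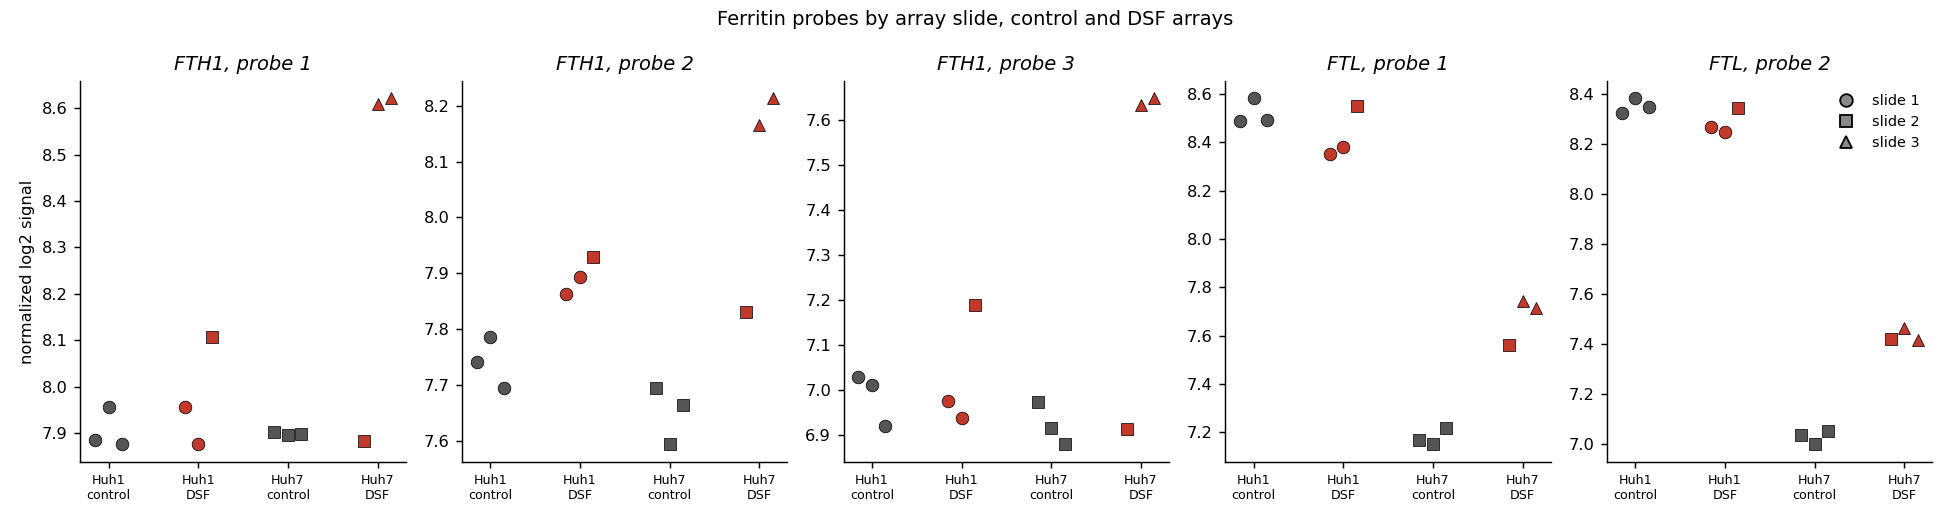
Normalized log2 signal (vertical axes) of the 3 FTH1 and 2 FTL probes on the control (grey) and DSF (red) arrays of each line, with the marker shape giving the slide. On slide 3 (triangles) the brightest FTH1 probe reads 8.61 and 8.62, against 7.88 for the Huh7 DSF array on slide 2 (square), whereas all 3 Huh7 DSF arrays lie above the controls for both FTL probes.

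On the uptake side, TF, the gene of transferrin, fell with DSF in both lines. It read 5.68, 5.75 and 5.72 in the Huh1 controls and 5.14, 5.15 and 5.23 with DSF, a change of -0.54 ± 0.07 (adjusted p = 3.60e-05). In Huh7 it went from 5.91, 5.90 and 5.88 to 5.11, 5.32 and 5.37, a change of -0.63 ± 0.07 (adjusted p = 1.03e-05). The arrays did not overlap in either line, the decreases did not differ between the lines beyond their error (-0.09 ± 0.10, adjusted p = 0.524), and the value on slide 2 in Huh7 was -0.78. With 5-FU, TF was 6.11, 5.90 and 5.95 in Huh1, a change of 0.27 ± 0.07 (adjusted p = 0.007). In Huh7 the 5-FU arrays overlapped the controls (change -0.05, adjusted p = 0.62; 0.30 with quantile normalization and 0.94 with the spike-in scaling).

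The receptors and DMT1 moved little with DSF. TFRC read 5.64, 5.63 and 5.59 in the Huh1 controls and 5.51, 5.52 and 5.51 with DSF, and although these groups did not overlap, the change of -0.10 was not called (adjusted p = 0.243). In Huh7 its controls read 4.96, 4.97 and 5.00 and its DSF arrays 5.04, 4.89 and 4.91 (change -0.03, adjusted p = 0.735). TFRC was lower after 5-FU, at 5.20, 5.31 and 5.28 in Huh1 and 4.96, 4.69 and 4.74 in Huh7, with changes of -0.35 (adjusted p = 0.000729) and -0.18 (adjusted p = 0.0395) that turned to 0.48 and 0.81 with the spike-in scaling and were -0.08 and -0.07, neither called, with quantile normalization. The Huh7 arrays overlapped the controls, and this call was lost when any Huh7 control array, Huh7 5-FU replicate 2 or 3, or Huh1 DSF replicate 1 or 2 was left out. TFR2, which senses holo-transferrin in hepatocytes, changed with DSF by -0.13 (Huh1, adjusted p = 0.255) and -0.37 (Huh7, adjusted p = 0.0038); in Huh7 slide 2 gave -0.30, not called with slide as a block (adjusted p = 0.11). With the median scaling, TFR2 after DSF in Huh1 was -0.30 and called (adjusted p = 0.0241). With quantile normalization it was -0.24 and called (adjusted p = 0.049). Its 5-FU changes were -0.25 (Huh1, adjusted p = 0.0288) and -0.43 (Huh7, adjusted p = 0.00084), and 0.57 and 0.56 with the spike-in scaling. The Huh1 call for TFR2 after 5-FU was lost when 5-FU replicate 2 or 3 or control replicate 1 or 3 was left out.

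The 2 probes of SLC11A2 did not give one account. Its brighter probe changed with DSF by 0.02 in Huh1 (adjusted p = 0.881) and by -0.26 in Huh7 (adjusted p = 0.0183; -0.12 on slide 2, adjusted p = 0.454 with slide as a block), a call that was also lost without Huh7 control replicate 1 or 3 or Huh7 DSF replicate 2 or 3. The other probe gave -0.19 (Huh1, adjusted p = 0.0408) and -0.12 (Huh7, adjusted p = 0.182). After 5-FU the brighter probe changed by -0.41 in Huh7 (adjusted p = 0.000549), where the other probe fell from 0.99, 1.07 and 1.07 to 0.18, -0.0042 and -0.06, a change of -1.004 (adjusted p = 3.32e-08). In Huh1 the 5-FU changes were -0.19 (adjusted p = 0.071) and -0.26 (adjusted p = 0.00804). The 5-FU change differed between the lines by -0.75 for the other probe (adjusted p = 6.27e-05). For the brighter probe this difference was -0.22 and not called (adjusted p = 0.148), and for the mean of both -0.48 (adjusted p = 0.00161). DSF against 5-FU in Huh7 gave 0.88 for the other probe (adjusted p = 1.26e-07). The brighter probe gave 0.15 there, not called (adjusted p = 0.115). The other probe was also higher in the Huh7 than in the Huh1 controls by 0.86, where the brighter probe gave -0.16. Which transcripts of the gene each probe reads is not given in the sources used here. Scaled to the spike-ins, the brighter probe was higher after 5-FU, by 0.64 in Huh1 and 0.57 in Huh7.

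IREB2, which encodes iron regulatory protein 2, was lower after each drug in each line. In Huh1 its controls read 3.07, 2.97 and 3.02, the DSF arrays 2.43, 2.35 and 2.28 and the 5-FU arrays 2.43, 2.48 and 2.44. The changes were -0.67 ± 0.06 with DSF (adjusted p = 8.67e-07) and -0.57 ± 0.06 with 5-FU (adjusted p = 3.43e-06). DSF against 5-FU gave -0.09 in Huh1, which was not called (adjusted p = 0.218). That difference was called with normexp background correction (-0.15, adjusted p = 0.0474) and with the median scaling (-0.24, adjusted p = 0.0267). It was also called with the spike-in scaling (-0.79, adjusted p = 7.11e-05). In Huh7 the controls read 3.43, 3.48 and 3.43, the DSF arrays 3.27, 3.15 and 3.13 and the 5-FU arrays 3.06, 3.18 and 3.06, changes of -0.26 ± 0.06 (adjusted p = 0.00247) and -0.34 ± 0.06 (adjusted p = 0.000201). With slide as a block the DSF change in Huh7 was -0.18 and not called (adjusted p = 0.101). The decrease was smaller in Huh7 than in Huh1 by 0.40 ± 0.08 for DSF (adjusted p = 0.00177; 0.092 and not called with the spike-in scaling, adjusted p = 0.739) and 0.23 ± 0.08 for 5-FU (adjusted p = 0.0442), and the latter call was lost in 12 of the 18 fits that left out 1 array. Scaled to the spike-ins, the 5-FU values turned to 0.25 in Huh1 and 0.64 in Huh7, and the DSF values were -0.53 and -0.44.

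Counted over the 10 genes, DSF in Huh1 gave 0 higher and 5 lower, TF, SLC40A1, CP, HAMP and IREB2, beside 52.7% of all genes called, 26.4% higher and 26.3% lower. For Huh7 it gave 4 higher and 5 lower, beside 53.2% of all genes, 29.1% higher and 24.1% lower; with slide as a block 4 were called, 2 in each direction, and with the spike-in scaling 0 higher and 4 lower. 5-FU in Huh1 gave 2 higher and 4 lower, beside 54.9% of all genes, 25.9% higher and 29.1% lower. For Huh7 it gave 3 higher and 6 lower, beside 63.5% of all genes, 32.5% higher and 31% lower. These 5-FU counts became 8 higher and 0 lower (Huh1) and 9 higher and 0 lower (Huh7) when the arrays were scaled to the spike-ins. The DSF change differed between the lines for 5 of the 10 genes, beside 46.3% of all genes, and the 5-FU change for 6, beside 43.6%. Control and treated arrays did not overlap for 6 and 7 genes after DSF and 7 and 8 after 5-FU in Huh1 and Huh7, beside 67.9%, 69.4%, 62.6% and 71.9% of all genes. The median change of the 10 genes was -0.28 and -0.14 after DSF and -0.27 and -0.26 after 5-FU, beside medians of -0.02, 0.04, -0.03 and -0.0054 over all genes. The number of iron genes called was near the share of all genes in Huh1, and in Huh7 it was 9 of 10 after each drug; no count is read here as particular to iron.

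Set against each other, the drugs differed for 8 of the 10 genes in Huh1, 4 higher and 4 lower with DSF, beside 55.8% of all genes, 30.5% higher and 25.3% lower. For Huh7 they differed for 5, 2 higher and 3 lower, beside 65.2% of all genes, 34.5% higher and 30.7% lower. In Huh1 HAMP was lower with DSF than with 5-FU by 1.36 on the log2 scale (-1.36, adjusted p = 7.31e-05), SLC40A1 by 0.95 (-0.95, adjusted p = 2.21e-06), TF by 0.81 (-0.81, adjusted p = 8.20e-07) and CP by 0.35 (-0.35, adjusted p = 0.00626), and these 4 kept that sign with the spike-in, median and quantile scalings. In Huh7 CP was lower with DSF by 1.60 (-1.60, adjusted p = 5.79e-09), TF by 0.58 (-0.58, adjusted p = 9.47e-06) and SLC40A1 by 0.30 (-0.30, adjusted p = 0.0139). The call of SLC40A1 was lost with slide as a block (-0.19, adjusted p = 0.282) and without Huh7 5-FU replicate 1 or 2 or Huh7 DSF replicate 3. By contrast, FTL was higher with DSF by 1.54 (adjusted p = 1.15e-09) and FTH1 by 0.93 (adjusted p = 8.18e-05), and with slide as a block by 1.43 and 0.44 (adjusted p = 3.82e-07 and 0.00105). With quantile normalization the FTH1 value was 0.23 and not called (adjusted p = 0.0825). Scaled to the spike-ins, FTL was higher by 0.38 and FTH1 turned to -0.23. HAMP in Huh7 did not differ between the drugs beyond its error (-0.06 ± 0.20, adjusted p = 0.806), but was lower with DSF with the spike-in scaling (-1.22, adjusted p = 3.09e-05). The 4 calls in the other direction in Huh1, for TFRC, SLC11A2, FTH1 and FTL, had values of 0.25, 0.21, 0.40 and 0.20, none was called with the median scaling, and with the spike-in scaling all were below 0.

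The other genes of iron handling were taken from 6 lists, of which 82 of 84 genes were tested. DSF in Huh1 gave 17 higher and 35 lower of the 82 (7 and 45 with the median scaling), beside 26.4% higher and 26.3% lower over all genes. For Huh7 the DSF counts were 27 and 15, beside 29.1% and 24.1%, where slide as a block gave 24 higher and 7 lower and the spike-in scaling 11 and 15. The 5-FU counts were 16 and 35 for Huh1, beside 25.9% and 29.1%, and 29 and 31 for Huh7, beside 32.5% and 31%, and became 60 and 3, and 65 and 5, with the spike-in scaling. The medians were -0.16 and 0.09 for DSF and -0.15 and 0.02 for 5-FU. In the paragraphs on these lists, pairs of values are log2 changes in Huh1 and then in Huh7, and each value under the 75th percentile scaling was called unless said otherwise. No count of a list is read as particular to it.

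Among the 20 genes tested that control hepcidin, Huh1 had 4 higher and 9 lower with DSF and 6 and 9 with 5-FU, while Huh7 had 6 and 6, then 11 and 6. Over all genes the shares higher and lower were 26.4% and 26.3%, 25.9% and 29.1%, 29.1% and 24.1% and 32.5% and 31% in the same order. GDF15, a stress-induced member of the TGF-beta family, rose with both drugs, by 2.79 ± 0.15 and 1.42 ± 0.15 with DSF and by 3.00 and 0.71 with 5-FU. HJV, which encodes hemojuvelin, the BMP co-receptor upstream of hepcidin, fell with DSF (-1.50 ± 0.37 and -2.07 ± 0.37). Its signal was low, with means of -1.86 in the Huh1 controls and -3.36 with DSF, and -3.06 and -5.13 in Huh7. SMAD9, which encodes a receptor-regulated SMAD, also fell with DSF (-1.60 and -0.92). The DSF changes of GDF15, HJV and SMAD9 kept their sign with slide as a block, which in Huh7 rests on 1 DSF array. The 5-FU change of SMAD9 (-0.75 and -0.64) became 0.08 and 0.34 with the spike-in scaling, neither called. BMP2, a ligand that induces hepcidin, rose with 5-FU (1.06 and 1.78), and ACVR1, a type I BMP receptor, rose with DSF (0.46 and 0.44) and 5-FU (0.40 and 0.67). The DSF change of ACVR1 was not called in Huh1 with the median scaling (0.29, adjusted p = 0.128) or in Huh7 with the spike-in scaling (0.27, adjusted p = 0.275), nor was its 5-FU change in Huh1 with the median scaling (0.37, adjusted p = 0.0538). HFE, the gene mutated in hereditary hemochromatosis, fell with 5-FU (-0.78 and -1.37), and with the spike-in scaling the values were 0.05, not called, and -0.38.

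Of 10 genes of heme synthesis, a main use of iron, Huh1 had 2 higher and 6 lower with DSF and 2 and 7 with 5-FU, while Huh7 had 2 and 2, then 2 and 5, beside called shares over all genes of 52.7%, 54.9%, 53.2% and 63.5%. ALAD, the second enzyme of the pathway, fell with DSF (-1.34 ± 0.14 and -0.51 ± 0.14), although in Huh7 it was not called with slide as a block (adjusted p = 0.102). ABCB6, a porphyrin transporter, fell with 5-FU (-1.60 and -1.48), and its decrease was called with the spike-in scaling too (-0.77 and -0.50). PPOX (-1.15 and -1.45) and CPOX (-0.80 and -0.86), which act late in the pathway, were lower after 5-FU, and with the spike-in scaling their values were -0.32, not called, and -0.47 for PPOX and 0.02 and 0.12, neither called, for CPOX. ALAS1, the rate-limiting enzyme in liver, rose with 5-FU (0.66 ± 0.08 and 1.09 ± 0.08).

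Of 11 genes of heme uptake and breakdown, Huh1 had 1 higher and 8 lower with DSF and 1 and 4 with 5-FU, while Huh7 had 3 and 3, then 3 and 4, against 52.7%, 54.9%, 53.2% and 63.5% of all genes called. HP, which encodes haptoglobin, the hemoglobin binder of plasma, fell with DSF (-0.94 and -1.56) and with 5-FU (-1.78 and -1.47, and with the spike-in scaling -0.95 and -0.49, the latter not called). HPX, which encodes the heme binder hemopexin, fell with DSF (-1.51 and -0.66, the latter not called with slide as a block), and so did its receptor LRP1 (-0.80 and -1.36). BLVRB, a biliverdin reductase, was lower after 5-FU (-0.34 and -1.40), and with the spike-in scaling its values were 0.49 and -0.42, both called; with quantile normalization the Huh1 value was -0.07 and not called.

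Of 18 genes for iron-sulfur clusters, Huh1 had 4 higher and 7 lower with DSF and 4 and 8 with 5-FU, while Huh7 had 8 and 1, then 7 and 10, against the same 52.7%, 54.9%, 53.2% and 63.5% of all genes. NFS1, the cysteine desulfurase that supplies sulfur, fell with DSF (-0.64 and -0.35, or -0.21 in Huh7 and not called with slide as a block) and with 5-FU (-0.93 and -1.54, or -0.10, not called, and -0.56 with the spike-in scaling). NUBP1, a cytosolic scaffold factor, rose with DSF (0.48 and 0.73), and IBA57, a mitochondrial assembly factor, rose with 5-FU (0.79 and 1.53). MMS19, of the cytosolic targeting complex, was lower after 5-FU (-0.81 and -0.67), and with the spike-in scaling 0.02, not called, and 0.32, called.

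Of 14 other transport and reduction genes, Huh1 had 5 higher and 2 lower with DSF and 3 and 3 with 5-FU, while Huh7 had 5 and 3 with each drug, beside 52.7%, 54.9%, 53.2% and 63.5% of all genes called. MCOLN1, a lysosomal cation channel that passes iron, rose with DSF by nearly the same amount in both lines (1.02 ± 0.08 and 1.04 ± 0.08). SLC25A28, a mitochondrial iron carrier, rose with 5-FU (0.57 and 0.77). STEAP3, the endosomal ferrireductase, was lower after 5-FU (-0.69 and -0.62), and 0.14 and 0.36, neither called, with the spike-in scaling. Of 9 genes of the iron regulatory proteins and ferritin turnover, Huh1 had 1 higher and 3 lower with DSF and 0 and 4 with 5-FU, while Huh7 had 3 and 0, then 1 and 3, beside those same shares of all genes. FTMT, which encodes mitochondrial ferritin, was higher after DSF (0.63 and 0.73), but in Huh7 it was 0.20 with slide as a block (adjusted p = 0.511), and in Huh1 0.41 with quantile normalization (adjusted p = 0.0903), neither called.

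**Figure D4:**
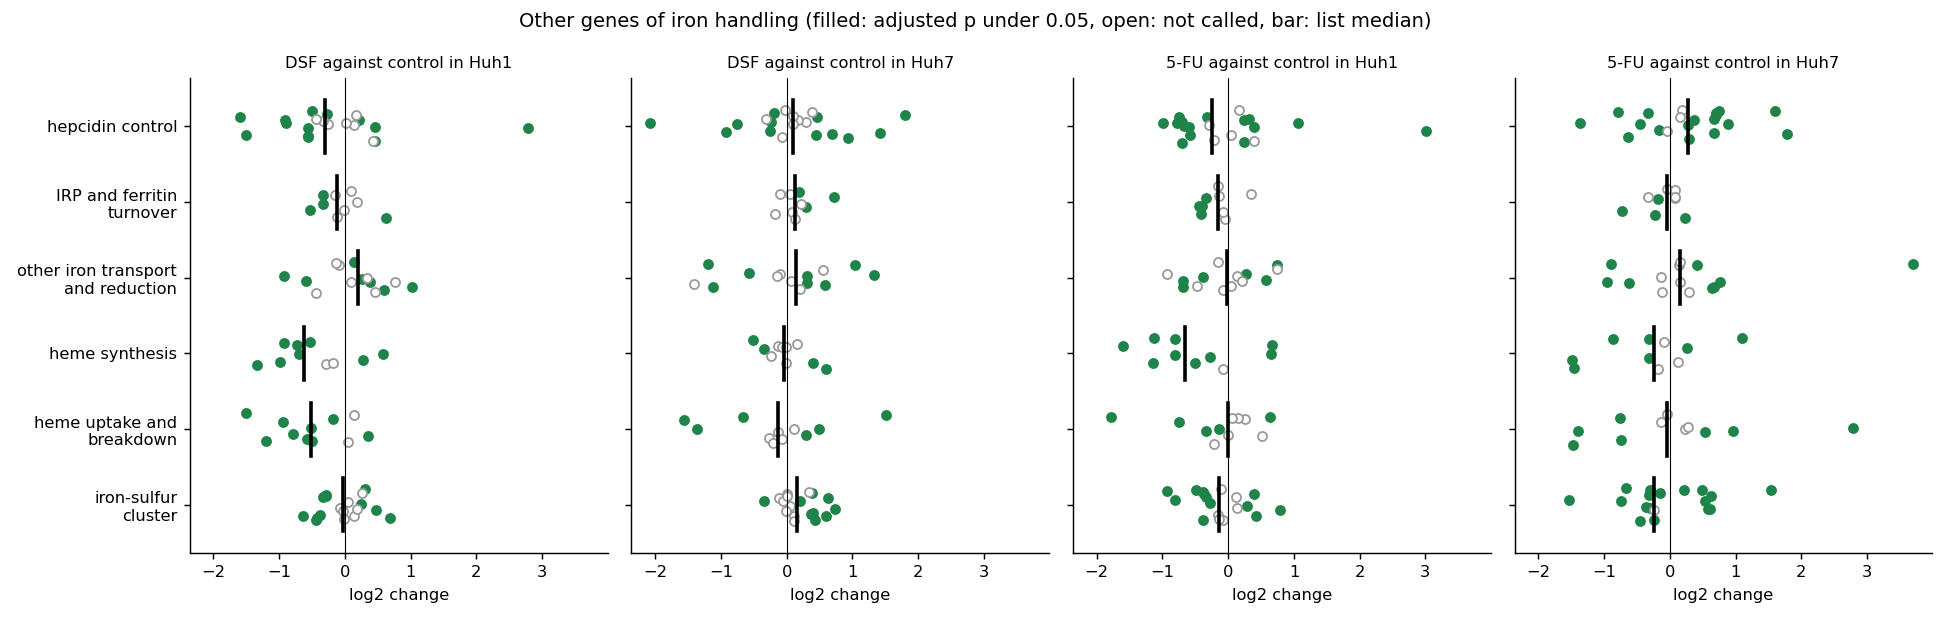
Log2 change from control (horizontal axes) of 82 other genes of iron handling, in 6 lists (vertical axis) and 4 comparisons; filled points were called at an adjusted p under 0.05, open points were not, and the bar is the median of the list. The highest point of the hepcidin control list is GDF15 after DSF and after 5-FU in Huh1 (2.79 and 3.00), and NFS1 is the lowest of the iron-sulfur list in each of the 4 comparisons.

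By Pearson's r over the 18 arrays among 12720 genes, the genes with the pattern most like that of HAMP were CPS1 (0.996), CD247 (0.996) and NRCAM (0.995), and for HAMP the difference between the lines sets most of this likeness. Those most like TFRC were B4GALT5 (0.976), OGFOD3 (0.974) and PRRC2C (0.972). Among those most like FTH1 were RPLP1 (0.963) and SLC16A12 (0.957). These values describe 18 arrays that share 2 lines, 3 treatments and 3 slides.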

How the data were processed

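Per the labels, EpCAM+ Huh1 and Huh7 cells were profiled on 18 one-color Agilent arrays, and the deposited spot files hold Feature Extraction (10.7.1.1 per the file headers) intensity values. The authors' processing subtracted background from each spot. The deposited series table holds the authors' normalized intensities, and their log2 values were used as an alternative. Spots flagged as outliers were left out and spots of a probe averaged; 78 of 42405 probes had no usable spot on some array. Log2 signals were scaled to each array's 75th percentile (10.10 to 10.84). Probes called well above background by the scanner software on every array of at least 1 group (29894) entered one limma (3.58.1, R 4.3.3) fit of the 6 groups, with Benjamini-Hochberg adjustment over all of them. A gene is shown by its brightest tested probe; 25736 of 27099 RefSeq identifiers were named. Between 25382 and 30141 probes per array were well above background, and 3 arrays a group limit the precision. The study's general statistics name a rank test, which with 3 against 3 cannot reach the threshold. Its microarray section selected genes by fold change and p and names no test there. The genes, lists and comparisons were chosen with earlier results of these data known. All 10 genes and all their probes are named; of each other list, up to 3 genes per direction called the same way in both lines, by mean change, some of which are given; and the 3 genes most like HAMP, TFRC and FTH1. Alternatives were normexp (offset 50) on the median spot and background signals (mean signals were not used here), quantile, median and spike-in (7 probes) scaling, no filter and a stricter filter on dim probes, the series table, the mean of a gene's probes, slide and replicate as blocks, leaving out each array and, added after seeing the data, DSF arrays on the slide of their controls alone. The fit was tested on simulated data. Motifs were searched in RefSeq start windows. Some genes of the erythroid marker list and of the ranking by likeness are not reported here.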

Additional observations from a re-analysis of the deposited data

Results flagged for a closer look

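By the limma interaction test on the brightest probe of each gene, the change with a drug differed between the lines for 11 combinations of gene and drug. Differences are given on the log2 scale as the Huh7 change less the Huh1 change. The other probe of SLC11A2, not counted among these, also differed for 5-FU (-0.75, adjusted p = 6.27e-05). For DSF the differences were 2.50 ± 0.28 (SE) for HAMP (adjusted p = 1.41e-05), 1.15 ± 0.13 for SLC40A1 (adjusted p = 1.78e-05), -0.84 ± 0.13 for CP (adjusted p = 0.000217), 0.59 ± 0.11 for FTL (adjusted p = 0.000623) and 0.40 ± 0.08 for IREB2 (adjusted p = 0.00177). HAMP and SLC40A1 were lower on all 3 DSF arrays than on the controls in Huh1 and higher on all 3 in Huh7. In Huh7 the HAMP change was 0.26 on slide 2. With the spike-in scaling the Huh7 changes of HAMP and SLC40A1 were 0.49 and 0.29, neither called. For 5-FU the differences were 1.20 ± 0.28 for HAMP (adjusted p = 0.00431), -0.76 ± 0.11 for FTL (adjusted p = 8.70e-05), 0.50 ± 0.13 for SLC40A1 (adjusted p = 0.00931), 0.41 ± 0.13 for CP (adjusted p = 0.0244), -0.32 ± 0.10 for TF (adjusted p = 0.0267) and 0.23 ± 0.08 for IREB2 (adjusted p = 0.0442). The last 3 were each lost without some single array, among them Huh1 control replicate 3 for CP and IREB2 and Huh1 5-FU replicate 1 for TF. For CP the second probe gave 0.34 (adjusted p = 0.15) and the mean of its probes 0.38 (adjusted p = 0.0666), neither called. With quantile normalization the CP difference was 0.36 and not called (adjusted p = 0.0545). With the spike-in scaling 3 genes differed for DSF (HAMP, SLC40A1 and CP) and 3 for 5-FU (HAMP, FTL and CP); the DSF differences of FTL and IREB2 were then 0.28 and 0.092, and the 5-FU differences of SLC40A1, TF and IREB2 0.66, -0.16 and 0.39, none called.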

How the results depend on the processing

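Normexp, the series table, the mean of a gene's probes and the stricter filter kept every count of genes within 1.5 times its value. With quantile normalization 3 of the 10 genes differed between the lines in the 5-FU change. With the median scaling 8 were called for DSF in Huh1, 5 for DSF against 5-FU in Huh1, and 7 other iron genes were higher with DSF in Huh1. With no filter, 5 were called for DSF against 5-FU in Huh1. With the spike-in scaling 4 were called for DSF in Huh7, 9 for DSF against 5-FU in Huh7, 3 for each difference between the lines, and of the other iron genes 20 were lower with DSF in Huh1, 11 higher with DSF in Huh7, and with 5-FU 60 higher and 3 lower (Huh1) and 65 and 5 (Huh7). With slide as a block, or with DSF arrays on the slide of their controls alone, 4 genes and 7 lower other iron genes were called for DSF in Huh7. Leaving out 1 array gave 5 to 8 calls for DSF against 5-FU in Huh1, with 5 without Huh1 5-FU replicate 2 or 3 or Huh1 DSF replicate 3.

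The labels do not say whether same-numbered arrays shared an experiment. The correlation of same-numbered arrays' deviations over 29894 probes lay between -0.0932 and 0.00925. No shared effect of the replicate number was seen, which cannot show whether the arrays were paired. With the replicate block, 5 and 9 genes were called for DSF and 5 and 8 for 5-FU in Huh1 and Huh7, and 6 of 90 values lost their call.

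Values of single genes changed sign 57 times over all settings, and 20 of these were changes of a called value. A value that changed sign under several settings is counted once for each. Scaled to the spike-ins, DSF in Huh1 gave TFRC 0.03, TFR2 0.0034 and FTL 0.041. 5-FU in Huh1 gave TFRC 0.48, TFR2 0.57, SLC11A2 0.64, FTH1 0.50, FTL 0.54, CP 0.76, HAMP 0.35 and IREB2 0.25, and in Huh7 TF 0.94, TFRC 0.81, TFR2 0.56, SLC11A2 0.57, FTH1 0.53 and IREB2 0.64. DSF against 5-FU gave TFRC -0.45, TFR2 -0.57, SLC11A2 -0.49, FTH1 -0.29 and FTL -0.50 in Huh1 and TFRC -1.01, TFR2 -1.10, SLC11A2 -1.01, FTH1 -0.23 and IREB2 -1.08 in Huh7. The differences between the lines were -0.24 for TFRC with DSF, 0.024 for FTH1 with 5-FU and 0.063 for FTH1 in the controls. The spike-in scaling moves every 5-FU value up by construction, since the arrays' percentiles differ.

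With quantile normalization, 5-FU gave FTH1 0.07 and FTL 0.15 in Huh1 and TF 0.30 and FTH1 0.14 in Huh7; DSF against 5-FU gave FTH1 -0.01 and FTL -0.18 in Huh1 and TFRC -0.051 in Huh7, and the differences between the lines were -0.061 for TFRC with DSF, 0.074 for FTH1 with 5-FU and 0.078 for FTH1 in the controls. With the median scaling, DSF in Huh1 gave SLC11A2 -0.15 and FTH1 -0.10, DSF against 5-FU gave TFR2 -0.027, and the DSF difference between the lines was 0.066 for TF. SLC11A2 with DSF in Huh1 was -0.0074 with normexp, -0.087 with the mean of probes and, over the arrays left out, from -0.020 (Huh1 control replicate 1) to 0.046, and its difference between controls was 0.35 with the mean of probes. With slide as a block or the same-slide arrays, DSF in Huh7 gave TFRC 0.066 and FTH1 -0.015, and the DSF difference between the lines was -0.026 for FTH1. Over the arrays left out, FTH1 between controls ran from -0.023 to 0.018 (Huh1 control replicate 2), and HAMP with DSF against 5-FU in Huh7 from -0.24 to 0.14 (DSF replicate 1; 0.084 without 5-FU replicate 2). Causes of these changes were not tested.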
